A study of Mus musculus with 8 samples.

Results

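The Trim30 gene cluster of mouse chromosome 7 was examined in Ly6C-high classical monocytes of bone marrow, across 8 RNA-seq libraries of 4 genotypes. It was taken as 7 genes, Trim30a, Trim30b, Trim30c, Trim30d, Trim12a, Trim12c and Trim34a, out of 13744 genes measured, and all 7 passed the filter that left 12752 genes for testing. The members were chosen by name after Trim30c had been seen to be higher in the libraries labelled Bcl6 cKO than in wild type. That contrast is therefore described here without a test. The genotypes were wild type, Bcl6 cKO (a conditional knockout), Irf2 KO and Nr4a1 KO, with 2 libraries each. The labels name neither the Cre that made the Bcl6 deletion nor the age, sex or strain of the mice. Whether the replicates were different mice is not stated either, and the p-values then speak only of variation among these libraries, part of which may be technical.

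TRIM proteins are ubiquitin ligases built from a RING finger, B-boxes and a coiled coil, and many are induced by interferon and act against viruses. TRIM30a is known to dampen Toll-like receptor signalling to NF-kB by promoting loss of the adaptors TAB2 and TAB3. Trim12a and Trim12c are rodent relatives of primate TRIM5, which restricts retroviruses, and TRIM34 is an interferon-induced relative of TRIM5. IRF2 binds the interferon-stimulated response element and is known mainly as a repressor there, BCL6 is a zinc finger repressor, and NR4A1 is the nuclear receptor required for nonclassical monocytes.

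All values are log2 CPM (log2 of reads scaled to a library of 1e6 reads) unless stated, and 1 CPM stood for 47.9 to 61.8 reads in libraries of 46617756 to 62633123 summed reads. Irf2 was lower by 0.56 ± 0.14 (SE, n = 2) on the log2 scale in Irf2 KO than in wild type (adjusted p = 0.0222, limma), and Nr4a1 was lower in Nr4a1 KO, at -2.31 ± 0.27 (adjusted p = 0.000622, limma). Nr4a1 was also lower in Irf2 KO than in wild type, at -2.41 ± 0.27 (adjusted p = 0.00163, limma), and its levels in Irf2 KO and Nr4a1 KO overlapped (difference -0.09 ± 0.27, adjusted p = 0.832, limma). Bcl6 went against its label, with a mean of 6.46 in the libraries labelled Bcl6 cKO and 4.65 in wild type, 3.52-fold higher. Reads outside a deleted exon can remain, so the level of the whole gene does not settle the label, and each direction drawn from the libraries labelled Bcl6 cKO carries this limit. All 8 of the classical monocyte markers were measured, with a summed level of 33850 to 38860 CPM in wild type, 35290 to 36050 in the libraries labelled Bcl6 cKO, 36320 to 39620 in Nr4a1 KO and 21190 to 23450 in Irf2 KO. These are bulk samples, so fewer cells of a type and less RNA per cell cannot be told apart.

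The genes lie side by side on chromosome 7 of GRCm38, within 263.4 kb. In order, Trim34a spans 104244457 to 104262234 on the plus strand, and the others lie on the minus strand: Trim12a at 104299894 to 104315466, Trim12c at 104338754 to 104353362, Trim30b at 104355382 to 104369884, Trim30c at 104382065 to 104400837, Trim30a at 104409025 to 104465193 and Trim30d at 104470014 to 104507849. Trim5 and Trim34b lie between them, and Trim6 lies 9305 bases from Trim34a. GENCODE annotates all 10 as protein-coding.

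**Figure D1:**
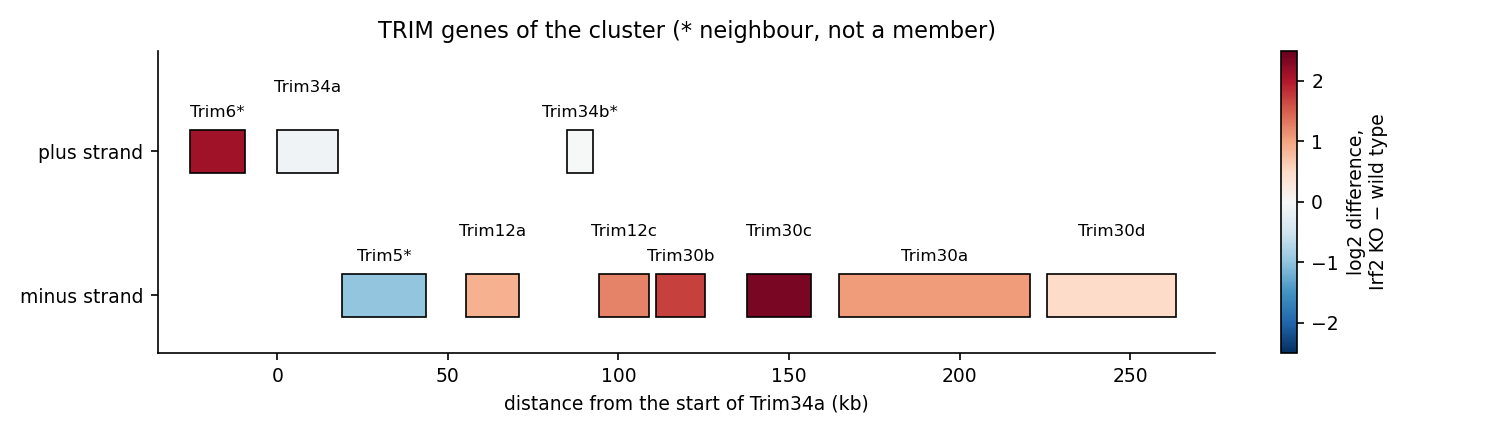
Map of the TRIM genes, with distance from the start of Trim34a in kb on the x axis, strand on the y axis, and the log2 difference between Irf2 KO and wild type as colour (red higher, blue lower in Irf2 KO). Trim30c and Trim6 are the deepest red at 2.37 and 2.12, and Trim5, beside Trim34a and Trim12a, is blue at -0.99.

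The promoters are shown because the genotypes concern DNA-binding repressors and because near-identical promoters of neighbouring genes went with opposite differences below. Each is the RefSeq window (GRCm38.p6) from 250 bases before to 50 after the start, read 5′ to 3′ on the gene's strand. Capitals mark 3 searched motifs on either strand: GAAANNGAAA (reverse complement TTTCNNTTTC), the core of the interferon-stimulated response element; GAANNGAAA (reverse complement TTTCNNTTC), a shorter interferon motif; and the palindrome TTCNNNGAA, found in STAT and BCL6 sites. Matches to the first and second motif overlap in Trim34a, Trim12a, Trim12c and Trim5. The windows are Trim30c at chr7:104400729-104401028, Trim30a at chr7:104465144-104465443, Trim12a at chr7:104315446-104315745 and Trim5 at chr7:104288057-104288356, all minus strand, and Trim34a at chr7:104244207-104244506, plus strand.
Trim30c: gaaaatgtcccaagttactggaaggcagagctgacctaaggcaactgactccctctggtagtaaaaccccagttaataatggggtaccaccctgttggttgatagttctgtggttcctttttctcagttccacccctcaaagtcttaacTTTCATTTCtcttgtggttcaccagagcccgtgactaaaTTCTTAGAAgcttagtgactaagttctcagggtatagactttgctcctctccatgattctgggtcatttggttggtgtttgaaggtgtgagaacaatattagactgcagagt
Trim30a: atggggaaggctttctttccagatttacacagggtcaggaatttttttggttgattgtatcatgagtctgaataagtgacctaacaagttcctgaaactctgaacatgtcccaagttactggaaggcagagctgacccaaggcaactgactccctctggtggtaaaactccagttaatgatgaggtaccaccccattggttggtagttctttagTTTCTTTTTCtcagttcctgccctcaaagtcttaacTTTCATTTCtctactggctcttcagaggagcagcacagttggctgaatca
Trim12a: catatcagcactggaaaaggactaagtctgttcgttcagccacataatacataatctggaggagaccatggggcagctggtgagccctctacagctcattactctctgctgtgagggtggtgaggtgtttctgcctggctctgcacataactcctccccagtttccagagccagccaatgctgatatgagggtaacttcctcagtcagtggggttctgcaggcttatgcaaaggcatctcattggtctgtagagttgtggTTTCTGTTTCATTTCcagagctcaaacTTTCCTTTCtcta
Trim5: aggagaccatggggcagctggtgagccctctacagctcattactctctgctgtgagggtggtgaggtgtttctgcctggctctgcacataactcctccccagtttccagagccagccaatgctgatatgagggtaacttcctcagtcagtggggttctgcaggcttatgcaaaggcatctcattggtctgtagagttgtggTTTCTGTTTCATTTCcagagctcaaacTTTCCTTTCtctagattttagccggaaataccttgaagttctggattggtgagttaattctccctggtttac
Trim34a: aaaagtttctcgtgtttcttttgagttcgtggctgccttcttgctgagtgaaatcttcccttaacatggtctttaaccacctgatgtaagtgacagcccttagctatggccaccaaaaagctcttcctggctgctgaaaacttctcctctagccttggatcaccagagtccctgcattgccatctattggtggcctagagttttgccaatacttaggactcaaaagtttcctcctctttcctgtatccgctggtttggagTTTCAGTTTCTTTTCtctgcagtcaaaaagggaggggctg

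All 7 members matched a RefSeq promoter. GAAANNGAAA was present in 5 of the 7 (Trim34a, Trim12a, Trim12c, Trim30a and Trim30d) and in 3.44% of all 32851 promoters of that length. GAANNGAAA was present in 6 of 7, all but Trim30b, against 7.52% of all promoters. TTCNNNGAA was present in Trim30c alone among the members, as TTCTTAGAA with its first base at -62 from the start, against 8.30% of all promoters. Trim30a has TTTCTTTTTC beginning at -36 and Trim30d has the same letters at -41, whereas the Trim30c window has no GAAANNGAAA and keeps TTTCATTTC at -101. The RefSeq start of Trim30b lies 11238 bases from its GENCODE start, so its window may not be the one used. That of Trim30c lies 59 bases from its GENCODE start, against 0 for Trim30a and Trim30d. The positions given for Trim30c therefore depend on the start used. These matches describe letters in the windows and not bound sites.

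Related promoters were very alike. Those of Trim30a and Trim30d were identical at 276 of 295 aligned bases (93.6%), and Trim30c matched Trim30a at 165 of 191 (86.4%). Trim12a and Trim12c matched at 247 of 260. The Trim5 and Trim12a windows shared 241 aligned bases with no difference, which include the same TTTCTGTTTC. These letters begin at -49 from the RefSeq start in Trim5 but at 11, past the start, in Trim12a. The transcripts were less alike at read length. Of all 150-base windows, 3.24% of those of Trim30a occurred unchanged in Trim30d, 8.06% of those of Trim34a occurred in Trim34b, 2.54% of those of Trim12c and 0.38% of those of Trim12a occurred in Trim5, and none of Trim30b or Trim30c occurred in another gene. Reads from such shared windows can be split or dropped, so the values of those pairs are uncertain to that extent. The cDNA kit does not mark strand, so reads of Trim12a cannot be told apart from reads of the antisense gene Gm15133 where the pair overlap. Gm15133 had a mean of 1.41 in wild type and 1.76 in Irf2 KO, far below Trim12a.

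Per length, Trim30a was the most abundant member. Its wild type libraries held 39.3 and 55.7 CPM per kb of exon, with a mean of 47.5. Trim30d followed at a mean of 11.4, then Trim12c at 9.70, Trim12a at 9.38 and Trim34a at 5.25 CPM per kb. Trim30d at 9.11 to 13.6, Trim12c at 8.22 to 11.2 and Trim12a at 9.03 to 9.73 overlapped between libraries, so their order is not fixed. Trim30c and Trim30b were the least abundant, at 3.002 and 1.69 CPM per kb. The length was the union of exons over all annotated transcripts, 1716 bases for Trim30c and 7527 for Trim30b. Without it their order was reversed, at 5.15 and 12.7 CPM in wild type, so the ranks given here depend on this length. In the libraries labelled Bcl6 cKO Trim30c came to 20.1 CPM per kb and stood second to Trim30a, at 67.4. In Irf2 KO Trim30a reached 98.6, Trim12c 23.0, Trim12a 17.4, Trim30d 15.5 and Trim30c 15.3 CPM per kb.

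**Figure D2:**
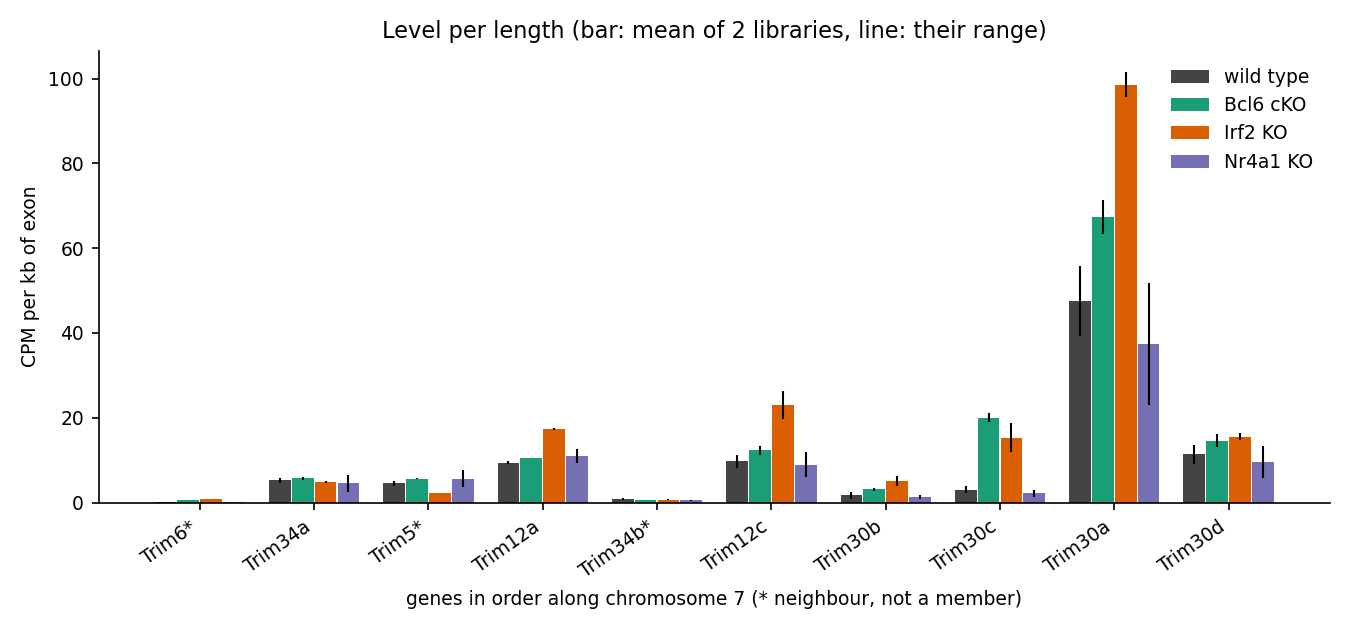
CPM per kb of exon (y axis) for the 7 members and 3 neighbours in chromosome order (x axis), with bars for the mean of 2 libraries per genotype and lines for their range. Trim30a is the tallest in every genotype, from 37.3 in Nr4a1 KO to 98.6 in Irf2 KO, and Trim30c rises from 3.002 in wild type to 20.1 in the libraries labelled Bcl6 cKO.

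Trim30c, chosen for its rise in the libraries labelled Bcl6 cKO, had the widest range among the members. Its wild type libraries were at 1.92 and 2.70 log2 CPM (219 and 334 reads), those labelled Bcl6 cKO at 5.03 and 5.18 (2020 and 1886 reads), Irf2 KO at 4.37 and 4.9997, and Nr4a1 KO at 1.18 and 2.35. Both the Bcl6 cKO and Irf2 KO libraries lay above all 4 others, and wild type and Nr4a1 KO overlapped. The order was thus Bcl6 cKO, Irf2 KO, wild type and Nr4a1 KO, with the last pair not separated by their spread. Trim30b, its neighbour, was at 2.74 and 4.23 in wild type, 4.39 and 4.66 in the libraries labelled Bcl6 cKO, 4.85 and 5.55 in Irf2 KO, and 2.58 and 3.76 in Nr4a1 KO. Its Irf2 KO libraries were the highest of the 8, and its 2 wild type libraries differed by 1.496.

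Trim30a, the NF-kB dampener, was at 7.34 and 7.84 in wild type, 8.02 and 8.20 in the libraries labelled Bcl6 cKO, 8.62 and 8.70 in Irf2 KO, and 6.56 and 7.73 in Nr4a1 KO. Irf2 KO stood highest without overlap, the Bcl6 cKO libraries came next, and wild type overlapped Nr4a1 KO. Trim30d, of which a product is reported to restrict tick-borne flaviviruses, was at 5.10 and 5.68 in wild type, 5.63 and 5.92 in the libraries labelled Bcl6 cKO, 5.78 and 5.94 in Irf2 KO, and 4.45 and 5.64 in Nr4a1 KO. Its Irf2 KO libraries lay above those of wild type and Nr4a1 KO but overlapped those labelled Bcl6 cKO, which in turn overlapped wild type.

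Among the TRIM5 relatives, Trim12a was at 5.71 and 5.81 in wild type, 5.94 and 5.91 in the libraries labelled Bcl6 cKO, 6.63 and 6.68 in Irf2 KO, and 5.74 and 6.19 in Nr4a1 KO. Trim12c was at 4.94 and 5.39 in wild type, 5.40 and 5.65 in the libraries labelled Bcl6 cKO, 6.62 and 6.21 in Irf2 KO, and 4.48 and 5.47 in Nr4a1 KO. For both genes the Irf2 KO libraries were above the other 6. Trim34a was at 3.59 and 3.93 in wild type, 3.81 and 3.95 in the libraries labelled Bcl6 cKO, 3.57 and 3.72 in Irf2 KO, and 2.75 and 4.06 in Nr4a1 KO. It was the one member whose Irf2 KO libraries did not exceed wild type, and Nr4a1 KO spanned all its other libraries.

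**Figure D3:**
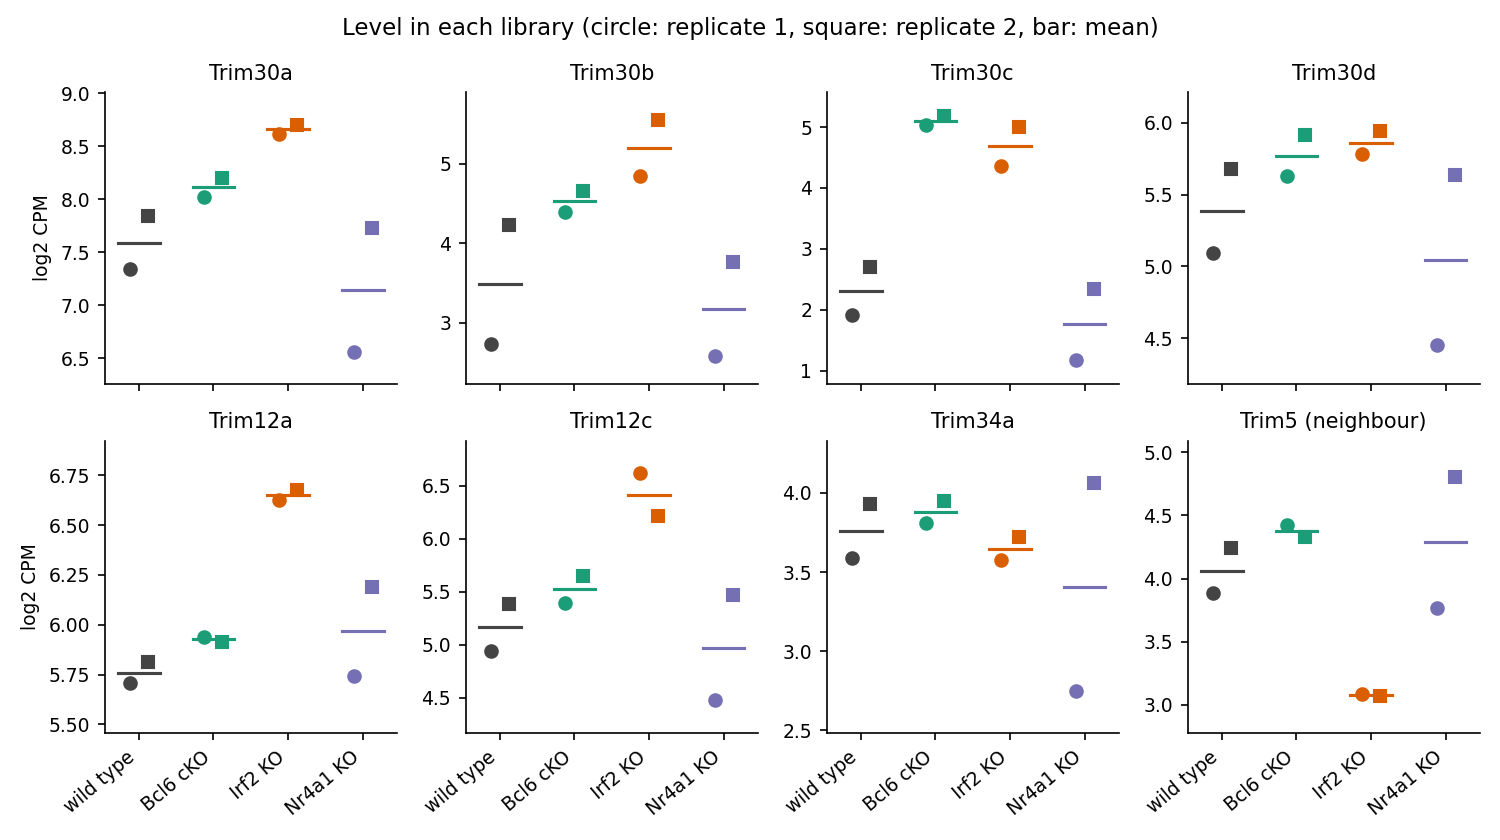
Log2 CPM (y axis, own scale per gene) of the 7 members and the neighbour Trim5 in each library by genotype (x axis), with replicate 1 as circles, replicate 2 as squares and the mean as a bar. Irf2 KO stands above wild type for every member but Trim34a and below it for Trim5, and Trim30c is also high, at 5.03 and 5.18, in the libraries labelled Bcl6 cKO.

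The first question was which members differ when Irf2 is knocked out. In Irf2 KO 5 of 7 members rose against wild type and 0 fell (limma, Benjamini-Hochberg adjusted p below 0.05; 0 fell at an unadjusted p below 0.05 or by limma voom as well), while 9.26% of all tested genes were called higher and 12.3% lower. The median log2 difference of the members was 1.07, beside -0.04 for all tested genes. Trim30c rose the most, by 2.37 ± 0.40 (SE, n = 2; 5.18-fold, adjusted p = 0.00603, limma). Trim30b rose by 1.72 ± 0.51 (3.29-fold, adjusted p = 0.0444, limma) and Trim30a by 1.07 ± 0.32 (2.10-fold, adjusted p = 0.0446, limma). Of the TRIM5 relatives, Trim12c rose by 1.25 ± 0.30 (2.38-fold, adjusted p = 0.022, limma) and Trim12a by 0.89 ± 0.15 (1.85-fold, adjusted p = 0.0054, limma). Trim30d, at 0.47 ± 0.34, and Trim34a, at -0.11 ± 0.36, did not pass (adjusted p = 0.349 and 0.851, limma). By levels alone, both Irf2 KO libraries exceeded both wild type libraries for 6 of 7 members, including Trim30d, which was not called. The share of all tested genes that did so was not counted, so this number stands without a background.

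The calls of Trim30c and Trim12a held in all 19 other settings tried, with an adjusted p of at most 0.0447 and 0.0362 (limma), the authors' deposited test among them. Those of Trim30a, Trim30b and Trim12c were lost with no trend and in several of the fits that left out a library. Their log2 differences over these settings were 0.82 to 1.32, 0.97 to 2.46 and 1.03 to 1.47, in that order. Without wild type replicate 1, Irf2 KO replicate 1 or Irf2 KO replicate 2 the count was 2 of 7, and without wild type replicate 2 or either library labelled Bcl6 cKO it was 3 of 7, and the highest adjusted p came to 0.196, 0.211 and 0.119 (limma) for the respective genes. The wild type libraries entered the choice of the members, since Trim30c was picked for its rise above them.

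The group means of Irf2 KO and Nr4a1 KO come from none of the libraries by which the members were chosen, although the fit takes its variance from all 8. There too 5 of 7 members were higher in Irf2 KO and 0 lower by limma (0 lower also at an unadjusted p below 0.05 and by limma voom), with 12.4% of all tested genes higher and 9.94% lower. The members' median log2 difference was 1.44, and that of all tested genes was 0.00. Trim30c was higher by 2.92 ± 0.40 (SE, n = 2; 7.58-fold, adjusted p = 0.00153, limma), Trim30b by 2.03 ± 0.51 (adjusted p = 0.0231) and Trim30a by 1.52 ± 0.32 (adjusted p = 0.0112). Trim12c was higher by 1.44 ± 0.30 (adjusted p = 0.011, limma) and Trim12a by 0.68 ± 0.15 (adjusted p = 0.0118). Trim30d, at 0.82 ± 0.34, and Trim34a, at 0.24 ± 0.36, did not pass (adjusted p = 0.122 and 0.674, limma). In a fit of these 2 groups alone 4 of 7 were called, Trim12a being lost. With no trend 4 of 7 were called as well, Trim30b being lost. Without Irf2 KO replicate 2 only Trim30c and Trim12c were called, a count of 2, without Irf2 KO replicate 1 Trim12c was not, and without Nr4a1 KO replicate 1 Trim30b was not (adjusted p of at most 0.136, limma). Because the Irf2 KO libraries are the same as in the comparison with wild type, the agreement of the counts is not independent.

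**Figure D4:**
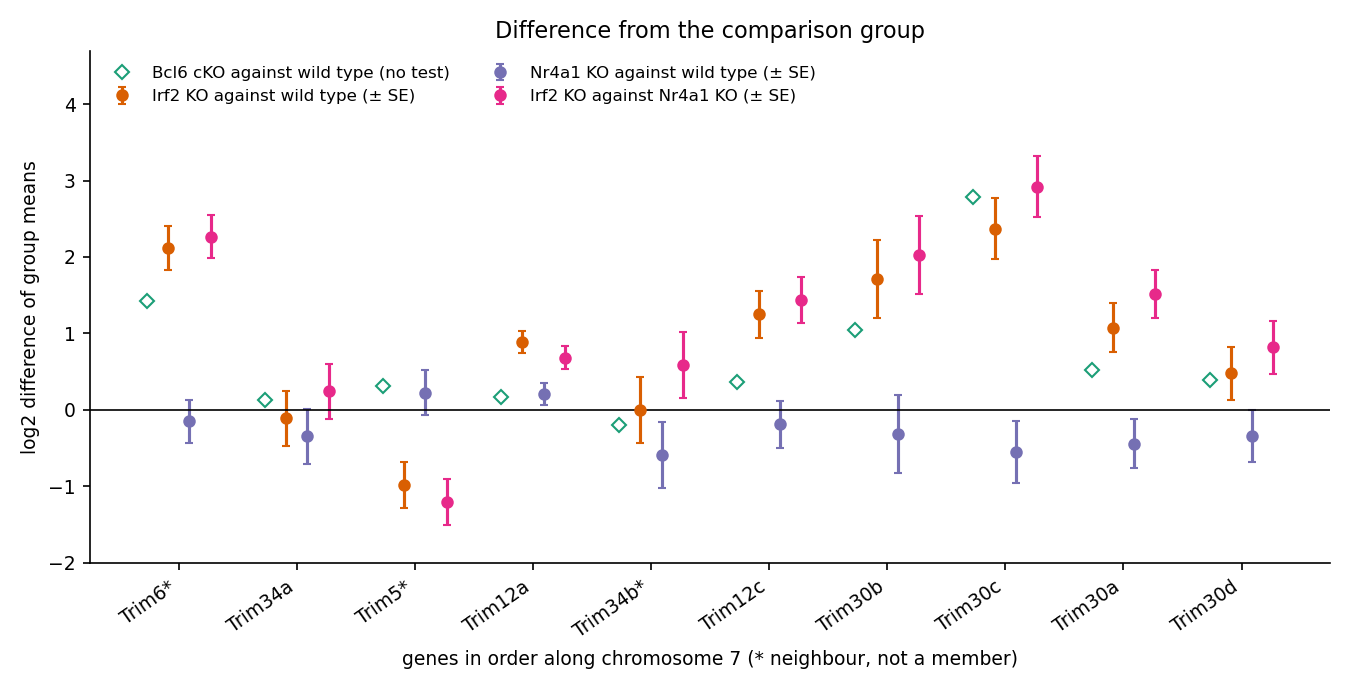
Log2 difference of group means (y axis) for the 7 members and 3 neighbours in chromosome order (x axis), with the SE from limma for the tested comparisons and open diamonds for Bcl6 cKO against wild type, which was not tested. Trim30c is highest in both Irf2 KO comparisons, at 2.37 and 2.92, Trim5 is below 0 in both, and the Nr4a1 KO points lie between -0.59 and 0.22.

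In Nr4a1 KO 0 of 7 members were called against wild type by limma, 0 reached an unadjusted p below 0.05 (the lowest was 0.19), and limma voom and the authors' deposited table also called 0. Of all tested genes 3.94% were called higher and 11.2% lower. Differences ran from -0.55 ± 0.40 for Trim30c to 0.21 ± 0.15 for Trim12a (SE, n = 2), with a median of -0.34 beside 0.01 for all tested genes. The 2 groups overlapped for every member. The Nr4a1 KO libraries differed between themselves by more than the groups did: replicate 2 exceeded replicate 1 for all 7 members, by 0.45 to 1.31. Without Nr4a1 KO replicate 2, the log2 differences of Trim30a (-1.03), Trim30d (-0.93) and Trim34a (-1.005) passed the test.

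In the libraries labelled Bcl6 cKO, the contrast by which the members were found, Trim30c was 2.79 above wild type on the log2 scale, 6.92-fold, and 10 of the 12752 tested genes had a larger difference. Both libraries lay above both wild type libraries for 5 of 7 members, Trim30a, Trim30b, Trim30c, Trim12a and Trim12c, as they did for 26.8% of all tested genes. Trim30b differed by 1.04, Trim30a by 0.52, Trim30d by 0.39, Trim12c by 0.36, Trim12a by 0.17 and Trim34a by 0.12. These numbers describe the contrast used in the choice and carry no test. Set directly beside Irf2 KO, the libraries labelled Bcl6 cKO were higher for Trim30c (0.42) and Trim34a (0.23). They were lower for Trim30a (-0.55), Trim30b (-0.67), Trim12a (-0.72) and Trim12c (-0.89). No overlap was seen for any of these genes, and the share of all tested genes without overlap was not counted here. Of the 5 members called in Irf2 KO, only Trim30c reached the higher level in the libraries labelled Bcl6 cKO. It was chosen for its rise in them, so this follows in part from the choice. Against Nr4a1 KO the Trim30c difference was 3.34, 10.1-fold.

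The immediate neighbours did not all move with the members. Trim6, which makes unanchored ubiquitin chains in interferon signalling, was near 1 CPM in wild type, at 0.01 and -0.02, and in Nr4a1 KO, at -0.13 and -0.17. It was at 2.09 and 2.13 in Irf2 KO and at 1.55 and 1.30 in the libraries labelled Bcl6 cKO, with no overlap. It rose in Irf2 KO by 2.12 ± 0.28 against wild type (adjusted p = 0.00279, limma) and by 2.27 ± 0.28 against Nr4a1 KO (adjusted p = 0.000905, limma). Trim5, whose promoter window shares the 241 bases with Trim12a shown above, was at 3.88 and 4.24 in wild type, 4.43 and 4.33 in the libraries labelled Bcl6 cKO, 3.09 and 3.07 in Irf2 KO and 3.77 and 4.80 in Nr4a1 KO. It was the lowest in Irf2 KO, where Trim12a was the highest.

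On the log2 scale Trim5 fell in Irf2 KO by 0.99 ± 0.30 against wild type (adjusted p = 0.0463, limma) and by 1.21 ± 0.30 against Nr4a1 KO (adjusted p = 0.0212). Its call against wild type held in 9 of 19 other settings. It was lost with quantile normalization, median centring, no trend and limma voom, and without any 1 library of wild type, Bcl6 cKO or Irf2 KO (adjusted p of up to 0.206, limma), while the difference stayed between -1.16 and -0.81. The call against Nr4a1 KO was lost in a fit of these 2 groups alone and without either Irf2 KO library (adjusted p of up to 0.0922, limma). Trim34b, the copy of Trim34a, was close to 1 CPM and differed by 0.00 in Irf2 KO (adjusted p = 0.997, limma). Of the 32 tested genes other than members within 2 Mb, 2 were called higher and 7 lower in Irf2 KO against wild type, and 5 higher and 1 lower in Irf2 KO against Nr4a1 KO, while 7 were called lower in Nr4a1 KO against wild type. The 6 nearest were Trim5, Gm15133, Trim34b, Trim6, Gm6593 and Dnajc19-ps.

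The wider TRIM family of 30 other genes had 2 called higher and 6 lower in Irf2 KO, with a median difference of -0.18. Those higher were Trim6 and Trim21, the cytosolic antibody receptor, which rose by 1.72 ± 0.43 (adjusted p = 0.0254, limma), a call lost without any 1 library of wild type or Irf2 KO (up to 0.123). Of those lower, Trim26 differed by -1.37 ± 0.22 (adjusted p = 0.00485, limma). In Nr4a1 KO 0 of the 30 were called higher by limma (1 at an unadjusted p below 0.05, 0 by limma voom) and 3 lower, Trim11, Trim8 and Trim25, a ligase that activates RIG-I (-0.80, adjusted p = 0.00823, limma). Limma voom called 1 of the 30 lower. In Irf2 KO against Nr4a1 KO 3 were called higher, among them Trim37 at 0.65, and 3 lower.

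Of 28 interferon response genes, 5 rose and 1 fell in Irf2 KO against wild type, with a median difference of 0.47. Rsad2 (viperin, an antiviral radical enzyme) rose by 3.45 ± 0.54 (adjusted p = 0.00459, limma), Ifit1 (an RNA-binding antiviral protein) by 3.76 ± 0.98 (adjusted p = 0.0278) and Zbp1 (a nucleic acid sensor) by 2.48 ± 0.66 (adjusted p = 0.0314). Ddx58, which encodes RIG-I, fell, with a log2 difference of -1.97 ± 0.51 (adjusted p = 0.0286, limma). Against Nr4a1 KO 7 were higher and 0 lower (1 lower at an unadjusted p below 0.05, 0 by limma voom), including Isg15 at 3.12 and Bst2, the virus tether, at 2.54. In Nr4a1 KO against wild type 0 were called by limma, 1 was lower at an unadjusted p below 0.05, and limma voom called 0. In the libraries labelled Bcl6 cKO the interferon genes had a median difference of 0.24 from wild type, with 5 of 28 above wild type without overlap, a smaller share than the 26.8% of all tested genes.

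These interferon genes differed between replicates in the same direction as the members. Replicate 2 exceeded replicate 1 for 28 of 28 in wild type (median 1.06) and 28 of 28 in Nr4a1 KO (median 2.10), for 24 of 28 in Irf2 KO (median 0.52) and for 23 of 28 in the libraries labelled Bcl6 cKO (median 0.21). The members did so for 7 of 7 in wild type (median 0.50), 7 of 7 in Nr4a1 KO (1.17), 6 of 7 in Irf2 KO (0.15) and 6 of 7 in the libraries labelled Bcl6 cKO (0.17), whereas all tested genes had medians from -0.0034 to 0.0135. The mean level of the interferon genes was 4.88 and 5.98 in wild type, 5.70 and 5.91 in the libraries labelled Bcl6 cKO, 5.87 and 6.41 in Irf2 KO, and 3.71 and 5.95 in Nr4a1 KO. The mean of the 7 members in the same order was 4.48 and 5.08, 5.46 and 5.64, 5.78 and 5.97, and 3.96 and 5.03, and the gap of those labelled Bcl6 cKO includes Trim30c, for which the members were chosen. The part of interferon genes in the differences between genotypes was not tested.

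**Figure D5:**
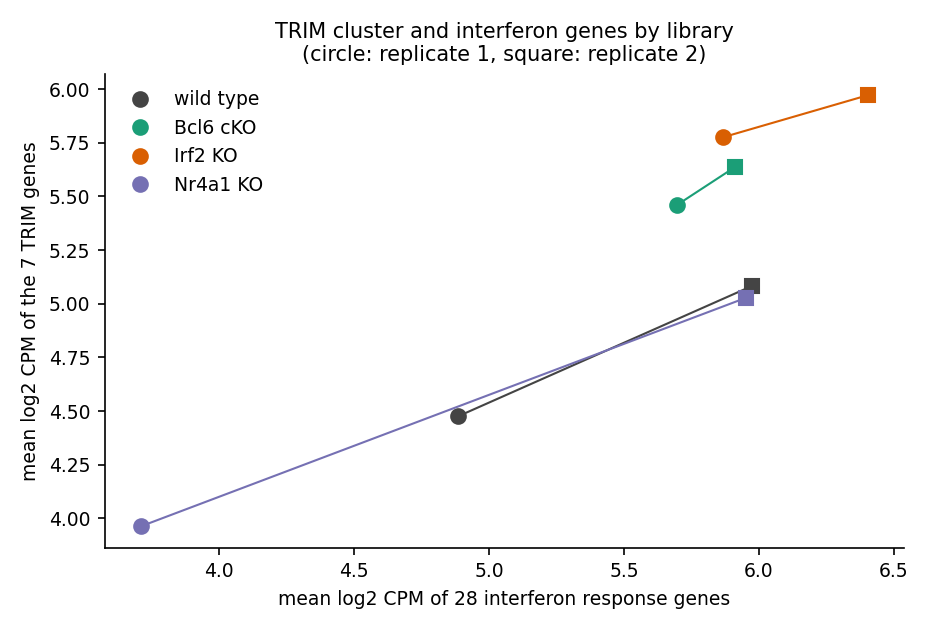
Mean log2 CPM of the 7 members (y axis) against that of 28 interferon response genes (x axis), 1 point per library, with replicate 1 as circles, replicate 2 as squares and a line joining the replicates of a genotype. The wild type and Nr4a1 KO libraries span 3.71 to 5.98 on the x axis and stay at or below 5.08 on the y axis. The Irf2 KO libraries and those labelled Bcl6 cKO lie from 5.46 to 5.97. This mean includes Trim30c, chosen for its rise in the libraries labelled Bcl6 cKO. By the members' median, Bcl6 cKO replicate 1 was at 5.40, below Nr4a1 KO replicate 2 at 5.47 and beside wild type replicate 2 at 5.39.

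The Toll-like receptor to NF-kB route on which TRIM30a acts had 23 genes tested. In Irf2 KO against wild type 1 rose and 9 fell, with a median of -0.27. The NF-kB subunit genes Nfkb2 and Relb fell, with differences of -1.46 ± 0.18 and -1.43 ± 0.28 (adjusted p = 0.00236 and 0.0098, limma), Tlr7 fell by 1.31, and the lipopolysaccharide receptor gene Tlr4 rose by 1.53 ± 0.21 (adjusted p = 0.00307, limma). In Nr4a1 KO 2 were higher and 3 lower, among them Nfkbia, the NF-kB inhibitor, at -3.76 ± 0.32 (adjusted p = 0.00011, limma). Against Nr4a1 KO, Irf2 KO had 1 higher (Nfkbia, 2.91) and 7 lower, Tlr2 the most at -1.26.

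Of 17 viral restriction genes outside the TRIM family, 1 rose (Bst2, 1.73) and 2 fell (Ifitm6, -0.59, and Serinc5, -0.87) in Irf2 KO against wild type, 2 rose and 1 fell in Nr4a1 KO (2 and 0 by limma voom), and 1 was higher and 2 lower in Irf2 KO against Nr4a1 KO. Of 13 factors that bind interferon response elements, 4 fell in Irf2 KO against wild type, Irf2, Irf5 (-0.72), Irf4 (-1.66) and Bcl6 (-1.07), and 0 rose by limma (0 at an unadjusted p below 0.05, 0 by limma voom). In Nr4a1 KO Irf3 (-0.59) and Irf5 (-0.92) fell and 0 rose, at an unadjusted p below 0.05 as well and by limma voom. Irf2 KO against Nr4a1 KO had 4 lower and 0 higher, 1 higher at an unadjusted p below 0.05 and 0 by limma voom.

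The 4 members whose group means spanned at least 1 on the log2 scale were compared with 9884 other genes by the root mean square difference over the 8 libraries, after each gene was centred on its mean. Nearest to Trim30a were Xaf1 (0.17), an interferon-induced gene, Pde7b (0.18) and Blvrb (0.22). Nearest to Trim12c were Blvrb (0.16), Tmem229b (0.22) and Hk3 (0.24). Nearest to Trim30b were Entpd1 (0.36), Fcgr1 (0.38) and Bst2 (0.39). For Trim30c the nearest were Oas1g (0.66), Gbp7 (0.79) and Acy1 (0.82). The distance is not scaled and can grow with a gene's own span, which was 3.34 for Trim30c, the member chosen for its rise, 2.03 for Trim30b, 1.52 for Trim30a and 1.44 for Trim12c. Within the cluster, Trim30a and Trim12c were nearest to each other (0.21), then Trim30d and Trim34a (0.25) and Trim30a and Trim30d (0.27).

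Markers of other cell types also differed between genotypes beside these values. In Irf2 KO against wild type, all 7 neutrophil markers together came to 1468 to 1821 against 1018 to 1220 CPM. Most of this sum was Elane, a granule protease gene, at 779 CPM in wild type replicate 1 to 1680 CPM in Irf2 KO replicate 2. Camp (6.12 CPM), Ltf (9.94), Ngp (28.4), Cxcr2 (1.27) and Mmp9 (2.28) instead had their lowest level of all libraries in Irf2 KO replicate 1. The higher sum therefore does not hold for each neutrophil marker, and Ly6g was at most 3.98 CPM. B cell Ebf1 was at 0 reads in at least 1 library. Lower in Irf2 KO were the summed levels of 5 of 6 nonclassical monocyte markers (139.2 to 179.2 against 325.5 to 440 CPM), 4 of 5 conventional dendritic cell markers (27.2 to 31.1 against 76.3 to 82.5), 4 of 5 plasmacytoid dendritic cell markers (54.1 to 61.9 against 77.1 to 87.5), 3 of 5 macrophage markers (62.0 to 69.8 against 141.3 to 148.2), 6 of 6 B cell markers (36.3 to 42.9 against 74.5 to 78.1) and 2 of 5 erythroid markers (1.65 to 2.93 against 17.0 to 17.3). The 2 of 6 T and NK cell markers measured came to 15.4 to 16.9 against 9.11 to 10.6 CPM. Each fraction counts the markers measured, not those that were lower. Single genes weighed heavily in these sums. Over all libraries Spn was at 124 to 177 CPM and Cx3cr1 at 3.31 to 225 among the nonclassical markers. Macrophage Adgre1 was at 59.3 to 163, B cell Cd79b at 28.4 to 54.1 and plasmacytoid Tcf4 at 44.8 to 68.2 CPM. In the libraries labelled Bcl6 cKO the nonclassical markers were at 234.7 to 250.2 CPM and the B cell markers at 35.4 to 39.0. The part of these cells in the values of the Trim30 cluster was not tested.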

How the data were processed

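RNA of Ly6C-high monocytes was sequenced in 8 libraries, made from 10 ng of total RNA with the SMARTer Ultra Low kit as paired 150-base reads, per the labels. The submitters' processing notes name STAR, Subread featureCounts, Salmon and limma with build mm10. The authors deposited log2 values per library, which undo to whole reads over a scaled total (reads plus 0.5, per 1e6). The authors' signed linear fold (a score) was not used. The authors' log2 fold changes and adjusted p-values were used only as an alternative.

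Of 13789 rows, 45 repeats were left out, and the 12752 genes whose log2 values averaged 1 CPM or more entered a limma fit (limma 3.58.1, R 4.3.3) of all 8 libraries with 1 mean per genotype and a variance trend (4 residual and 4.66 prior degrees of freedom, Benjamini-Hochberg over all of them). The members, gene lists, markers and tests were chosen with earlier results of these data known. Named list genes are up to 4 called genes per list and comparison with the largest difference and no overlap of libraries, and pattern genes are the 3 nearest. Alternatives were no trend, no filter, a minimum of 4 CPM, centring on the median, quantile normalization, log2(CPM + 1), library weights, only the 2 groups compared, a replicate block, each library left out, the authors' test and limma voom. In fits without a library, the lone library is assumed to vary like the others. Sequences came from RefSeq on GRCm38.p6 and gene positions from GENCODE on GRCm38, read with Biopython 1.88 and pandas 2.3.3 in Python 3.11.15.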

Additional observations from a re-analysis of the deposited data

How the results depend on the processing

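Leaving out each of the 8 libraries in turn moved the number of members called from 5 to between 2 and 5 of 7 in Irf2 KO against wild type, from 0 to between 0 and 3 in Nr4a1 KO against wild type, and from 5 to between 2 and 7 in Irf2 KO against Nr4a1 KO. The number of genes called went from 2755 to between 1076 and 3190, from 1925 to between 1065 and 1775, and from 2850 to between 1460 and 2705. Without a trend of the prior variance, 2 of 7 members were called in Irf2 KO against wild type, Trim30c and Trim12a. The count in Irf2 KO against Nr4a1 KO was then 4 of 7. With only the 2 groups compared, 1054 genes were called in Nr4a1 KO against wild type and 1770 in Irf2 KO against Nr4a1 KO, in fits with fewer samples. When a library was left out, signs turned for members not called, and for Trim5 and Trim21, which are not members. In Nr4a1 KO against wild type the ranges were -1.03 to 0.14 for Trim30a, -1.06 to 0.43 for Trim30b, -1.13 to 0.033 for Trim30c, -0.93 to 0.25 for Trim30d, -0.016 to 0.43 for Trim12a, -0.69 to 0.30 for Trim12c, -1.005 to 0.31 for Trim34a, -0.29 to 0.74 for Trim5 and -0.21 to 1.19 for Trim21. Those of Trim34a were -0.28 to 0.06 in Irf2 KO against wild type and -0.42 to 0.90 against Nr4a1 KO. Trim34b, at 0.00 in Irf2 KO, ran from -0.47 to 0.46 without a library and was 0.014 with quantile normalization, 0.099 with median centring, 0.024 in the authors' deposited table and 0.038 with limma voom. Median centring moved all differences by 0.10 in Irf2 KO and 0.13 in Nr4a1 KO against wild type, and raised the share of calls that were higher from 42.9% to 59.3% and from 26.1% to 50.7% (53.5% and 46.8% with quantile normalization). The number of members called was the same under these scalings. Whether replicate numbers pair the samples is not stated in the labels. Over all tested genes, the correlation of replicate differences between genotypes ran from -0.0029 to 0.18. It was not above 0.1 in every pair, so samples were treated as sharing only a number. For most members and interferon genes, however, replicate 2 was higher than replicate 1 in each genotype. What the replicates share for such genes was not tested. The fit with a replicate block called 5, 0 and 6 members in the 3 comparisons, Trim30d being added in the last. Whether other members differ by less than the spread of 2 libraries cannot be seen at this number of replicates. The cause of these shifts was not tested.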
